A study of Mus musculus with 12 samples.

Results

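Glucagon-producing alpha cells are the second most common endocrine cell of the mouse islet, after the insulin-producing β cells. Their identity rests on a set of transcription factors and on a group of proteins they make alongside glucagon. Here 6 genes of that kind were followed in whole islets: the transcription factors Irx1, Irx2 and Pou3f4, the secreted carrier proteins Ttr and Gc, and the amino acid transporter Slc38a5. They were chosen by name, with earlier results of these data known. All 6 were found among the 24421 genes of the count files and passed the filter on low counts, which left 13583 genes for testing.

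Islet RNA was sequenced from mice fed a high-fat diet for 6 weeks. The 6 BKO libraries came from Il22ra1βKO mice, named for loss of interleukin-22 receptor subunit alpha 1 in β cells, and the 6 Cre libraries from control Ins2Cre mice, in which the insulin promoter drives Cre recombinase. Beyond those names the labels give no alleles, sex or age. They also leave unsaid whether every library is its own animal, and the p-values therefore describe only how these samples spread. By its name the deletion is aimed at β cells, and the series gives no purified alpha cells.

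In alpha cells the homeobox factors of the Iroquois family (Irx1, Irx2) and the POU factor Pou3f4, also called Brn4, are part of the set of factors that mark the cell type. Pou3f4 is known to bind the glucagon gene promoter. Ttr (transthyretin) carries thyroid hormone and, with retinol-binding protein, retinol, and Gc is the vitamin D-binding protein, which also binds actin. Both carriers are best known as liver products. Slc38a5 carries glutamine and other neutral amino acids and is the transporter that mouse alpha cells induce when glucagon signalling to the liver is blocked and blood amino acids are high.

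Depth, as the sum of reads over all genes, lay between 10356093 and 11902217 in BKO libraries and between 11444273 and 12397139 in Cre libraries, and the lower depth of BKO was larger than the spread (exact two-sided permutation p = 0.0152). The targeted gene was near its detection limit, with 13 reads summed over BKO libraries and 16 over Cre libraries, so its loss was not detectable at this depth, and reads summed per gene carry no view of single exons. The islet label held, since insulin (Ins2) stood at a mean ± SD of 71213 ± 14568 CPM (reads of a gene scaled to a common library size with TMM factors) over the BKO libraries and 74804 ± 8545 CPM over the Cre libraries.

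The promoter windows of a pair of members whose values were higher in BKO, and of the glucagon gene against which they are read, are shown first, to show which searched letters these windows share and which they do not. Each is the 250 bases before the RefSeq start (GRCm38.p6), with matches to 8 searched motifs in capitals. Irx2 lies at chr13:72628570-72628819 on the plus strand, Gc at chr5:89457899-89458148 on the minus strand and Gcg at chr2:62483654-62483903 on the minus strand.
Irx2: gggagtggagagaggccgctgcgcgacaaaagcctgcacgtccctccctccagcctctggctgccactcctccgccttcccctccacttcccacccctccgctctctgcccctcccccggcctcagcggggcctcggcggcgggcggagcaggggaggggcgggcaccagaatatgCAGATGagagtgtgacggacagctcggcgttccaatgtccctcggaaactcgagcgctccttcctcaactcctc
Gc: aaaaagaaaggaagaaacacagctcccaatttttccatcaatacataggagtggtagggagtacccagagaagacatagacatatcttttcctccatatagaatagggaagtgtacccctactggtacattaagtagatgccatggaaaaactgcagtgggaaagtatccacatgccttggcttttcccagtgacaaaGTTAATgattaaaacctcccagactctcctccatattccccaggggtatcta
Gcg: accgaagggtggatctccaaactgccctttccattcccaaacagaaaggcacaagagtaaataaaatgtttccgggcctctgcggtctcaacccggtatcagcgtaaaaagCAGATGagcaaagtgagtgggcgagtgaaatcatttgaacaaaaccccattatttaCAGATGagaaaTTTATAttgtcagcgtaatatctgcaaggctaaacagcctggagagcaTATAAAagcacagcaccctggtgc

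The E-box form CAGATG, a site class of basic helix-loop-helix factors, stood once in the Irx2 window, beginning 74 bases before the start, and in the Gcg window it began 139 and 83 bases before the start. It is common, being present in 14.4% of 32851 promoter windows of the same length. The Gc window held instead GTTAAT, the half-site of the liver and islet factor HNF1, 52 bases before the start, a motif found in 6.43% of windows. The capitals in the Gcg window also mark TATAAA on either strand (12.4% of windows). The other motifs were the forkhead forms TGTTTAC (3.17%) and TGTTTGC (4.30%), the homeodomain core TAATTA (4.84%), the Iroquois motif ACANNTGT (6.31%) and the cAMP response element TGACGTCA (1.55%), searched on both strands, and none of them had a match in the windows of Irx2, Gc or Gcg. The windows of Slc38a5 and Pou3f4 were searched but are not printed, since GENCODE places the gene start of each upstream of the RefSeq one. Slc38a5 had 1 match, to the Iroquois motif, and Pou3f4 had none. A match is a description of letters, not of binding.

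Per length of transcript the members spanned a wide range of levels. Ttr was the highest, at 561 ± 150 CPM per kb of exon in BKO and 369 ± 54.1 CPM per kb in Cre (SD, n = 6 each), followed by Gc at 65.8 ± 15.3 CPM per kb in BKO and 50.4 ± 4.41 CPM per kb in Cre. Slc38a5, Irx2 and Irx1 lay close together, between 6.02 and 7.51 CPM per kb in BKO and between 4.57 and 6.25 CPM per kb in Cre. Irx2 was the highest of these 3 in BKO and Slc38a5 in Cre, and neighbours in that order differed by less than the SD of the higher one. Pou3f4 was the lowest, at 0.319 ± 0.177 CPM per kb in BKO and 0.298 ± 0.193 CPM per kb in Cre. Glucagon itself, Gcg, reached 11475 CPM per kb in BKO and 7703 CPM per kb in Cre.

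Irx2, the Iroquois factor on chromosome 13 (72628820 to 72634198), ran from 17.2 to 35.8 CPM in BKO with a median of 24.03 CPM, against 12.7 to 21.4 CPM in Cre with a median of 16.6 CPM. In 5 of the 6 BKO libraries it lay above every Cre library, and the groups overlapped through BKO-4. The log2 fold change was 0.55 ± 0.16 (SE), a 1.47-fold difference with a 95% interval from 1.16 to 1.85. It did not pass over all genes (edgeR quasi-likelihood test with Benjamini-Hochberg adjustment, adjusted p = 0.169), while the exact two-sided permutation p of this gene alone was 0.00866. DESeq2 gave it an adjusted p of 0.0438 and called 1.01% of its 14916 genes higher, so Irx2 was the 1 member called by that tool.

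Irx1, its neighbour in the Iroquois cluster (chromosome 13, 71957921 to 71963723, opposite strand), showed a smaller difference in the same direction. It ran from 10.5 to 20.3 CPM in BKO with a median of 15.3 CPM, against 9.18 to 15.7 CPM in Cre with a median of 12.4 CPM. The ranges overlapped widely, with 2 of 6 BKO libraries above every Cre library. The log2 fold change was 0.40 ± 0.15 (SE; edgeR adjusted p = 0.277, exact permutation test two-sided p = 0.0606).

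Pou3f4 on chromosome X (110814280 to 110817207) was too weakly detected to compare. Its reads ran from 2 to 19 in BKO libraries and from 4 to 22 in Cre libraries, with BKO-4 under the floor of 3 reads used here. The sums were nearly equal, 62 reads in BKO and 63 in Cre. The log2 fold change of 0.086 ± 0.45 (SE; edgeR adjusted p = 0.966) has a 95% interval from 0.549-fold to 2.05-fold, so a change within those bounds was not detectable at this depth.

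The carriers followed the pattern of Irx2. Ttr (chromosome 18, 20665280 to 20674321), among the 135 most abundant genes tested, ran from 399.5 to 932.8 CPM in BKO with a median of 664 CPM, against 351 to 519 CPM in Cre with a median of 429 CPM. All BKO libraries but BKO-4 were above every Cre library. The log2 fold change of 0.61 ± 0.17 (SE), 1.52-fold with a 95% interval from 1.17 to 1.98, was the largest among the members and did not pass over all genes (edgeR adjusted p = 0.192, DESeq2 adjusted p = 0.0528, exact permutation test two-sided p = 0.0152).

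Gc (chromosome 5, 89417522 to 89457898) ran from 72.1 to 151 CPM in BKO with a median of 123 CPM, against 84.4 to 102 CPM in Cre with a median of 93.4 CPM. In BKO-4 it was below every Cre library and in the other 5 BKO libraries above them all. The log2 fold change was 0.39 ± 0.15 (SE; edgeR adjusted p = 0.284, exact permutation test two-sided p = 0.0758). Its spread differed between groups, with a coefficient of variation of 23.3% in BKO and 8.75% in Cre.

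Slc38a5 on chromosome X (8271133 to 8280179) did not share that pattern. It ran from 11.3 to 18.8 CPM in BKO with a median of 13.6 CPM, against 10.3 to 18.2 CPM in Cre with a median of 13.9 CPM, and the groups overlapped throughout. The log2 fold change of 0.011 ± 0.14 (SE; edgeR adjusted p = 0.986, exact permutation test two-sided p = 0.929) has a 95% interval from 0.828-fold to 1.23-fold. That interval ends below the estimated fold of Irx2 or Ttr, although this comparison of intervals is no test between genes. No gene of the annotation overlaps any of the 6 members.

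**Figure D1:**
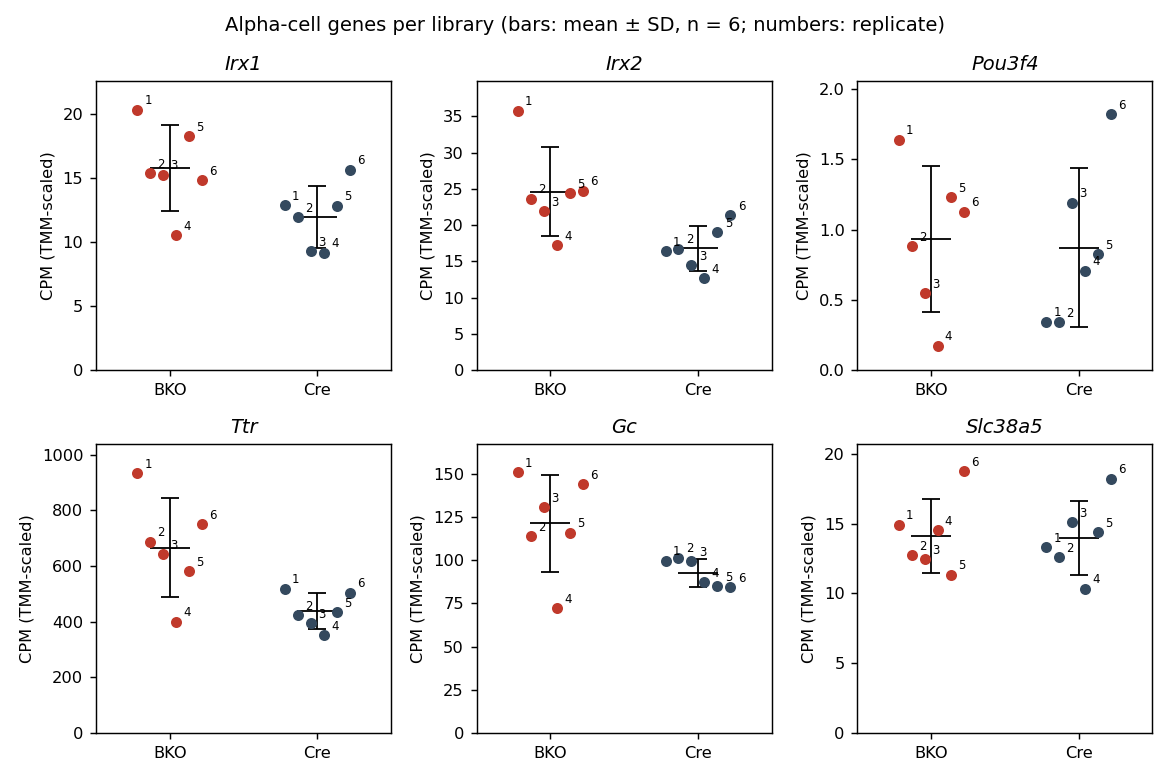
Level of each member in every library, in TMM-scaled CPM, with BKO on the left and Cre on the right; points are libraries with their replicate number and bars are the mean ± SD (n = 6). Irx2, Ttr and Gc had 5 of 6 BKO libraries above every Cre library, with BKO-4 low, whereas Pou3f4 and Slc38a5 were spread alike in both groups.

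Read against the background, the members gave 0 calls among 6 with edgeR at an adjusted p under 0.05, where 0.00% of all genes were called higher and 0 were called lower. At an unadjusted p under 0.05, 4 of the 6 were higher in BKO (Irx1, Irx2, Ttr and Gc) and 0 lower, against 8.70% of all genes higher and 4.66% lower. No member had groups without overlap, a property of 0.331% of genes in the higher direction. All 6 log2 fold changes were positive, as were 52.8% of those of all genes. Those of Slc38a5 (0.011) and Pou3f4 (0.086) were smaller than their SE and changed sign in 8 and 6 alternative settings. The median log2 fold change of the 6 was 0.39, beside 0.0078 over all 13583 genes. The members were chosen with earlier results known, and several vary together among libraries. These counts are therefore a description and not a test of the set. Limma-voom called no member and no gene, with adjusted p of 0.0901 for Irx2 and 0.0715 for Ttr.

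In the edgeR fit without a block, library BKO-4 decided whether members were called. It was the lowest BKO library for 5 of the 6 members and for Gcg, and BKO-1 the highest of all 12 libraries for Irx1, Irx2, Ttr, Gc and Gcg. Without BKO-4, edgeR called 3 members higher, Irx2 (0.62, adjusted p = 0.0388), Ttr (0.70, adjusted p = 0.0252) and Gc (0.48, adjusted p = 0.0123), beside 0.989% of all genes. Leaving out any other single library called none of the 6, where the share of all genes called higher was 0.770% without Cre-5, 0.0366% without BKO-3, 0.00732% without Cre-1 and 0.00% without each of the others. A fit with the replicate number as a block called 2 members, Irx2 and Ttr, beside 2.15% of all genes, and the labels do not say what a shared number stands for. Without BKO-1 the log2 fold changes were 0.41 for Irx2, 0.48 for Ttr, 0.30 for Irx1 and 0.31 for Gc, with adjusted p from 0.177 to 0.423 for these 4 genes.

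**Figure D2:**
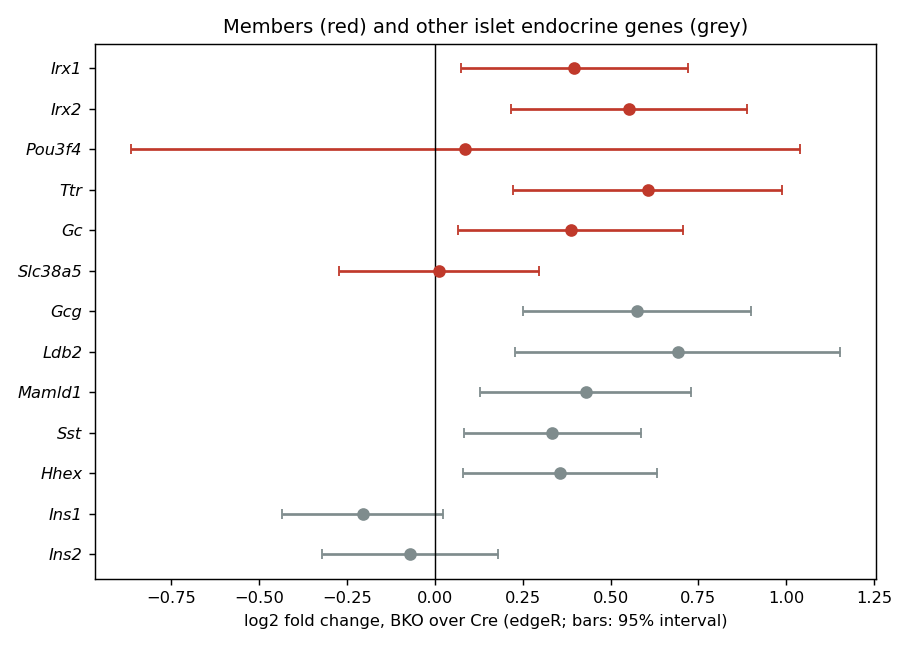
Log2 fold change of BKO over Cre for the 6 members (red) and 7 other endocrine genes (grey), as points with the 95% interval of the edgeR fit over all genes. Irx2 (0.55) and Ttr (0.61) lie beside Gcg (0.58), Slc38a5 (0.011) lies at no change, and the bar of Pou3f4 is the widest.

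Glucagon was the natural measure to set the members against. Gcg, on chromosome 2, averaged 17144 ± 4290 CPM over the 6 BKO libraries and 11508 ± 1689 CPM over the 6 Cre libraries (mean ± SD). Its log2 fold change was 0.58 ± 0.15 (SE), with an edgeR adjusted p of 0.159 and an exact two-sided permutation p of 0.00866. In bulk islets more alpha cells and more RNA per alpha cell cannot be told apart, so each member was also expressed per 1000 Gcg reads of the same library, a ratio that needs no scaling factor. The 6 ratios were tested with exact two-sided permutation over the 12 libraries, and the p-values are not adjusted for the 6.

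Per glucagon transcript, Irx2 and Ttr were close to equal in both genotypes. Irx2 was at 1.44 ± 0.127 reads per 1000 Gcg reads in BKO and 1.46 ± 0.0941 in Cre (SD, n = 6 each; exact permutation p = 0.844). Ttr was at 38.6 ± 2.92 in BKO against 38.1 ± 2.93 in Cre (exact permutation p = 0.762). Their coefficient of variation across BKO libraries in CPM, 24.8% for Irx2 and 26.7% for Ttr, was close to that of Gcg.

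Slc38a5 was lower per glucagon transcript in BKO. It ran from 0.616 to 1.22 reads per 1000 Gcg reads in BKO with a median of 0.795, against 1.11 to 1.39 in Cre with a median of 1.18. In 5 of 6 BKO libraries the ratio was below every Cre library, and BKO-4 lay inside the Cre range. The log2 difference was -0.54, or 0.689-fold (exact permutation p = 0.0108). It kept its direction and stayed under 0.05 when each library was left out in turn (-0.65 to -0.45). In CPM the log2 fold change of Slc38a5 was 0.011 and that of Gcg 0.58. The lower ratio therefore came with a higher Gcg and near-equal Slc38a5 CPM. Whether Slc38a5 differed per alpha cell was not tested and cannot be read from bulk islets. With libraries paired by replicate number the exact permutation p was 0.0625, so the call was lost there. With somatostatin reads in place of Gcg the difference was -0.32 (exact permutation p = 0.0541), and with the summed insulin reads it was 0.13 (exact permutation p = 0.53).

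Irx1, Gc and Pou3f4 lay between these, each with a lower mean ratio in BKO that did not exceed the spread. Irx1 was at 0.936 ± 0.168 reads per 1000 Gcg reads in BKO and 1.035 ± 0.0937 in Cre (SD, n = 6 each; exact permutation p = 0.173), and Gc at 7.13 ± 1.01 in BKO against 8.24 ± 1.45 in Cre (exact permutation p = 0.165). Pou3f4 was at 0.0518 ± 0.0241 in BKO against 0.0746 ± 0.0415 in Cre (exact permutation p = 0.351). Without BKO-5 the Irx1 difference was -0.24 (exact permutation p = 0.0216), and without Cre-6 the Gc difference was -0.28 (exact permutation p = 0.0455).

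**Figure D3:**
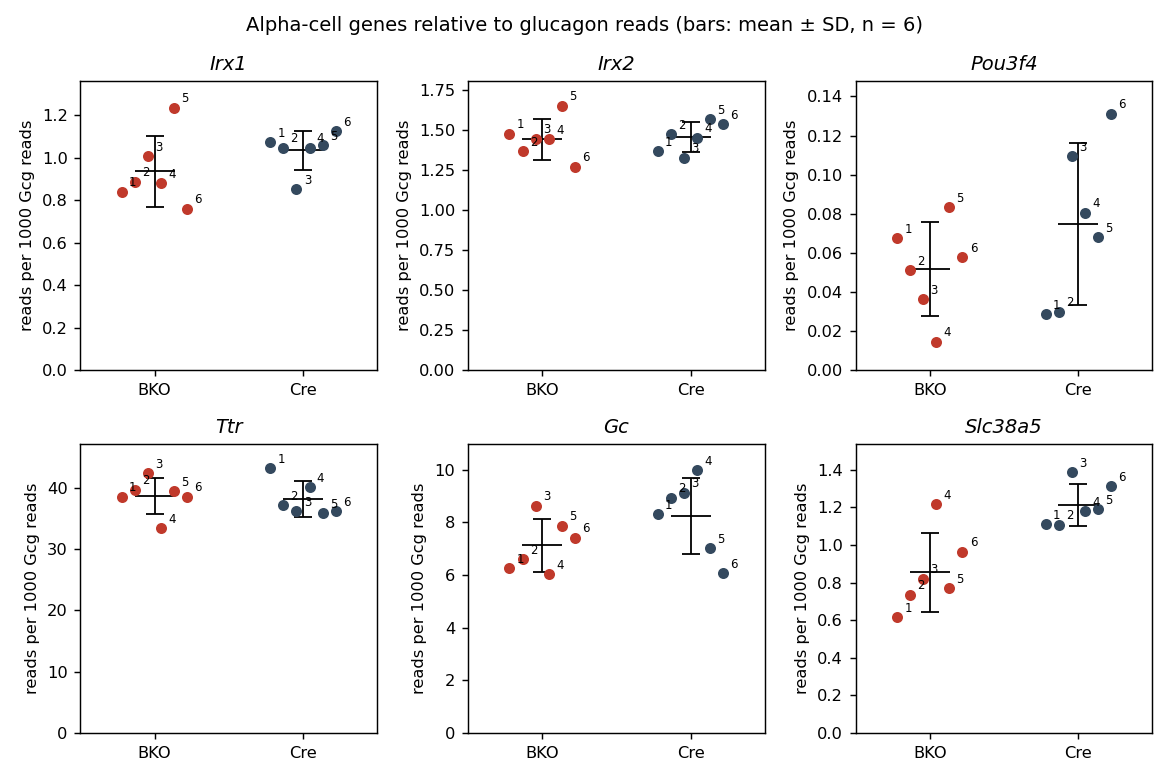
Reads of each member per 1000 Gcg reads in the same library, BKO on the left and Cre on the right, with replicate numbers and bars for the mean ± SD (n = 6). For Slc38a5, 5 of 6 BKO libraries lie below the Cre range of 1.11 to 1.39, while Irx2 and Ttr have nearly equal means in both genotypes.

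The members also differed in how closely they followed glucagon from library to library within a genotype. After the mean of each genotype was subtracted, 6 relations of log2 CPM with Gcg were computed over the 12 libraries. Permutation p-values shuffle libraries within genotype (100000 draws) and are not adjusted for the 6. All libraries share the composition of the islet sample, so a correlation does not single out alpha cells.

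Ttr tracked Gcg with r = 0.942 and rho = 0.916 (permutation p = 9e-05 and 0.00025). Irx2 had r = 0.933 and rho = 0.860 (permutation p = 1e-04 and 0.0013). By Pearson r, both relations held without BKO-1 and BKO-6, the 2 libraries farthest from the median of Gcg (r = 0.895 for Ttr and 0.914 for Irx2), and within each genotype. Within BKO, r was 0.967 for Ttr and 0.935 for Irx2 (exact permutation p = 0.00417 and 0.0139, n = 6), and within Cre it was 0.877 for Ttr and 0.944 for Irx2 (exact permutation p = 0.0181 and 0.00556, n = 6). By rank, Irx2 within BKO and Ttr within Cre did not pass (rho = 0.829, exact permutation p = 0.0583 for each). Ttr within BKO and Irx2 within Cre passed (exact permutation p = 0.00278 and 0.0167).

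Irx1 followed with r = 0.787 and rho = 0.664 (permutation p = 0.00511 and 0.0284), and r = 0.830 without those 2 libraries. Within BKO its r of 0.743 did not pass (exact permutation p = 0.0875, n = 6), and within Cre it was 0.899 (exact permutation p = 0.00278, n = 6).

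For the remaining 3 members the relation was weaker or rested on few libraries. Gc had r = 0.668 and rho = 0.357 (permutation p = 0.0536 and 0.290), 0.423 without the 2 libraries, with r = 0.853 within BKO (exact permutation p = 0.0292, n = 6) and -0.115 within Cre (exact permutation p = 0.806, n = 6). Slc38a5 had r = 0.580 and rho = 0.678 (permutation p = 0.0563 and 0.0246), 0.498 without the 2 libraries, with 0.413 within BKO (exact permutation p = 0.418, n = 6) and 0.882 within Cre (exact permutation p = 0.0458, n = 6). Pou3f4 had r = 0.638 and rho = 0.573 (permutation p = 0.0344 and 0.0634), and the relation rested on the 2 libraries, since r was 0.491 without them (permutation p = 0.183). Within BKO its r was 0.842 (exact permutation p = 0.0319, n = 6) and within Cre 0.336 (exact permutation p = 0.542, n = 6). The differences in r between genotypes were not tested.

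**Figure D4:**
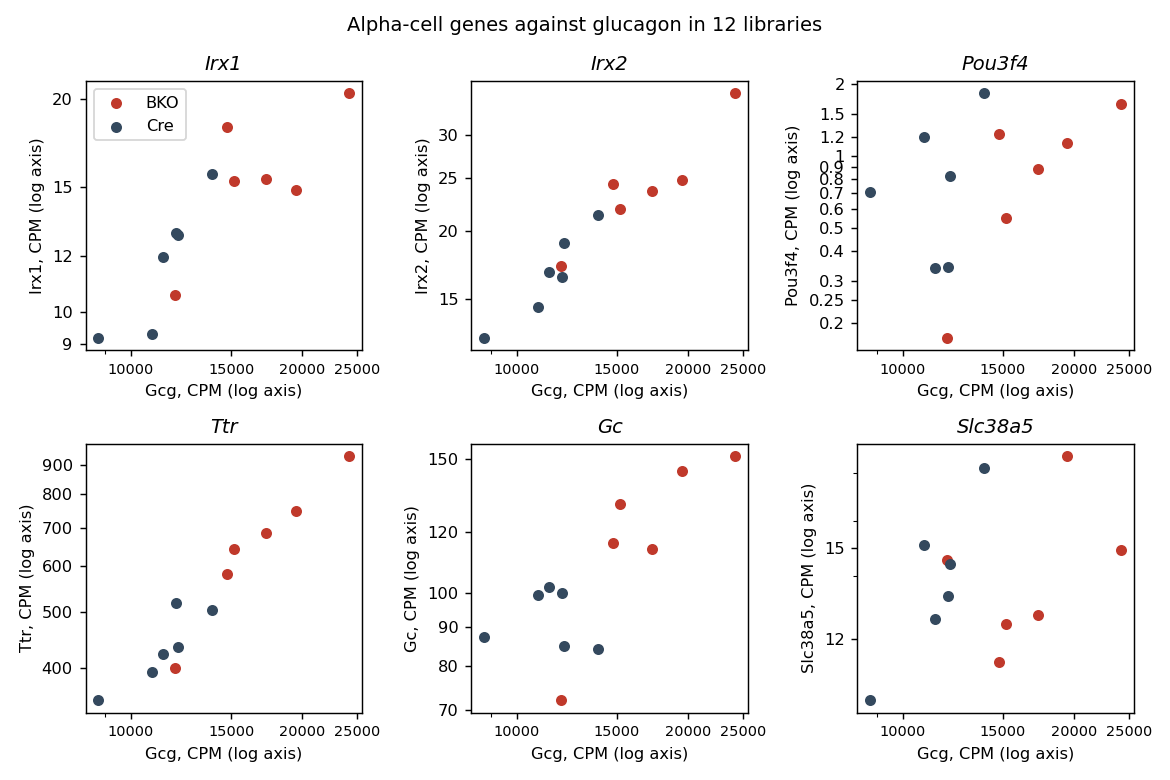
Each member against Gcg in the 12 libraries, both in TMM-scaled CPM on log axes, BKO in red and Cre in dark blue. Irx2 and Ttr rise with Gcg within both genotypes (r = 0.933 and 0.942 with genotype means removed). Gc has r = 0.853 in BKO and -0.115 in Cre, and Slc38a5 has r = 0.413 in BKO and 0.882 in Cre.

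Across 12147 other genes, the mean profile of the 6 members within genotype was most like that of Gcg (Pearson r = 0.960, 12 libraries, a description with no p). Pappa2, which encodes a protease of insulin-like growth factor binding proteins, was next at 0.959, with a log2 fold change of 0.40 between BKO and Cre. The other 8 of the 10 most alike were Lzic, Gnpat, Wfdc16, Samd14, Etv1, Nynrin, Abcc8 and Tox, with r from 0.888 to 0.908. Among these, Etv1 is a transcription factor on the list of factors used by alpha cells, and Abcc8 encodes the sulfonylurea receptor of the potassium channel shared by islet endocrine cells. Somatostatin stood at rank 31 (r = 0.850). The insulin genes differed, with Ins2 at rank 4794 (r = 0.118) and Ins1 at rank 10949 (r = -0.491). Set against the mean of the other 5 members, Irx2 (0.900) and Ttr (0.891) were the most alike and Slc38a5 (0.352) the least.

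Other transcription factors used by alpha cells differed little as a group, with a median log2 fold change of 0.041 over 14 tested genes. At an unadjusted p under 0.05, 2 were higher and 1 lower, and none passed over all genes. The lower one was Nkx2-2, a factor common to islet endocrine cells, at -0.15 ± 0.055 (SE; edgeR adjusted p = 0.237), and Etv1 stood at 0.33 ± 0.15 (edgeR adjusted p = 0.375).

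Among 14 other alpha-cell genes the median was 0.24, with 3 higher at an unadjusted p under 0.05 and 0 lower. Beside Gcg these were Ldb2, a LIM-domain-binding cofactor, at 0.69 ± 0.22 (SE; edgeR adjusted p = 0.197), and Mamld1 at 0.43 ± 0.14 (edgeR adjusted p = 0.211). Sstr2, the somatostatin receptor by which delta cells restrain glucagon release, was at 0.45 ± 0.23 (edgeR adjusted p = 0.404). None of the 14 passed over all genes with edgeR or DESeq2.

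Of 7 paralogs in the Iroquois and POU class III families only Irx3 passed the count filter, at 1.495 ± 0.595 CPM in BKO against 0.995 ± 0.191 CPM in Cre (0.59 ± 0.28, edgeR adjusted p = 0.367). Irx4, Irx5 and Irx6 summed to 2 reads or fewer in each genotype. Pou3f1, with 41 reads summed over BKO and 38 over Cre, had the most reads of the other POU class III genes, with Pou3f2 at 0 in both genotypes and Pou3f3 at 0 in BKO and 2 in Cre.

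The amino acid carriers and sensors around Slc38a5 had a median of -0.0040 over 16 tested genes, with 1 higher and 4 lower at an unadjusted p under 0.05 and none past the test over all genes. The higher one was Slc1a5, a glutamine transporter (0.39 ± 0.15, edgeR adjusted p = 0.269). The lower ones were led by Casr, the calcium-sensing receptor (-0.17 ± 0.067, edgeR adjusted p = 0.294), Slc7a8 (-0.14 ± 0.059, edgeR adjusted p = 0.305) and the glutamine transporter Slc38a7 (-0.18 ± 0.075, edgeR adjusted p = 0.323). Of 6 tested partners and relatives of the carriers, Rbp4, the retinol-binding protein that pairs with transthyretin, stood at 150 ± 32.8 CPM in BKO against 121 ± 18.4 CPM in Cre (0.31 ± 0.14, edgeR adjusted p = 0.359). Vdr, the vitamin D receptor, was at -0.13 ± 0.061 (edgeR adjusted p = 0.375) and Lrp1 at 0.19 ± 0.11 (edgeR adjusted p = 0.478).

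Because Ttr and Gc are liver products too, hepatocyte markers were read beside them. Of 10 such genes 3 passed the count filter. Fga, Tat and Fgb had log2 fold changes of 0.76, 0.53 and 0.92. Of these 3, 2 were higher at an unadjusted p under 0.05, and 0 passed over all genes with edgeR. Their summed level ran from 58.4 to 159.5 CPM in BKO and from 27.1 to 91.06 CPM in Cre. The defining marker albumin (Alb) had 25 reads summed over BKO and 12 over Cre. Apoa1 had 21 over BKO and 18 over Cre, and Apoc3 had 1 over BKO and 0 over Cre. Ahsg had 7 over BKO and 5 over Cre, and Cps1 had 5 over BKO and 2 over Cre. Apoa2 (44 over BKO, 72 over Cre) and Serpina1a (8 over BKO, 11 over Cre) had fewer reads in BKO. These sums stand beside 44329 reads of Ttr in BKO and 31276 in Cre.

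Markers of other islet and pancreatic cells were read in the same libraries, and none of them passed over all genes with edgeR. DESeq2 called 7 endothelial, 3 duct and 2 stellate genes higher, and 2 β-cell genes lower. It also called 2 macrophage genes, Itgax lower and Cd14 higher. Among all its 14916 genes DESeq2 called 151 higher (1.01%) and 50 lower. Of 7 tested delta, PP and epsilon cell genes the median was 0.25, with Sst at 0.33 ± 0.12 (SE; edgeR adjusted p = 0.245) and the delta-cell factor Hhex at 0.36 ± 0.13 (edgeR adjusted p = 0.251). All 16 endothelial markers had positive values (median 0.44, 13 at an unadjusted p under 0.05), with Egfl7 at 0.50 and Flt1 at 0.52, and their summed level ran from 651.5 to 939 CPM in BKO and from 511 to 734.5 CPM in Cre. For stellate and mesenchymal markers the median was 0.36 over 14 genes (Rgs5 0.50, Thy1 1.21; sums from 182 to 274 CPM in BKO and from 134 to 242 CPM in Cre), and duct markers 0.32 over 12 (Onecut2 1.43, Anxa3 0.72; sums from 2451 to 3602 CPM in BKO and from 2573 to 3148 CPM in Cre). The part of these in the values of the members was not tested.

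Acinar markers had a median of 0.52 over 17 of 21 genes, with 16 positive (Cela2a 0.68) and Bhlha15 at -0.20. At an unadjusted p under 0.05, 0 were higher and 1, Bhlha15, was lower. Their sum ran from 1768 to 6216 CPM in BKO and from 347 to 7966 CPM in Cre. The β-cell list had a median of -0.23 over 12 genes, with 11 negative, led by Glp1r at -0.35 and Pdx1 at -0.25, and sums from 98630 to 157000 CPM in BKO and from 122100 to 153500 CPM in Cre. Macrophage markers had a median of -0.37 over 11 genes (Itgax -1.24, Cd14 1.27; sums from 130.2 to 159.9 CPM in BKO and from 139 to 182.5 CPM in Cre), and those of Schwann cells and neurons -0.077 over 7 (Gfra3 -0.71, Snap25 -0.077; sums from 208 to 327 CPM in BKO and from 263 to 330 CPM in Cre). Cd79a was the 1 lymphocyte gene tested (0.47), and no red blood cell gene passed the count filter, with the 4 globin genes at 0 reads in all libraries. With the endothelial score as a covariate, which itself differed between the genotypes, Ttr stood at 0.64, Irx2 at 0.53, Gc at 0.52 and Irx1 at 0.25 (edgeR adjusted p = 0.952 for each). With 1 surrogate variable Ttr was at 0.37, Irx2 at 0.31, Gc at 0.28 and Irx1 at 0.11 (edgeR adjusted p = 1.0 for each). With the acinar score as a covariate Pou3f4 was at 0.79 (edgeR adjusted p = 0.651) and Slc38a5 at 0.16 (edgeR adjusted p = 0.790).

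**Figure D5:**
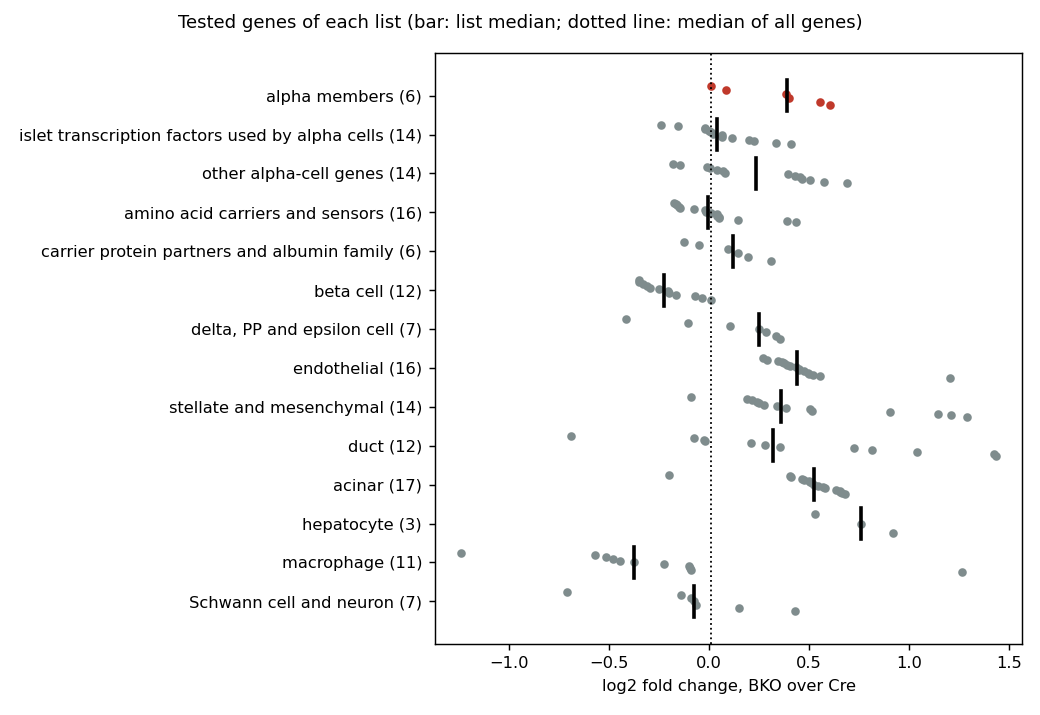
Log2 fold change of BKO over Cre for each tested gene of each list with 3 or more tested genes, one point per gene, with the list median as a bar and the number tested in parentheses; the dotted line is the median of all genes (0.0078). The members (red, median 0.39) lie beside the endothelial list (0.44) and the stellate list (0.36), and the β-cell list (-0.23) lies on the other side.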

How the data were processed

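Islets of 6 BKO and 6 Cre samples gave TRIzol-extracted RNA and paired-end NovaSeq reads, per the labels' protocols. HISAT2 2.0.5, HTSeq and mm10 are named in the submitters' processing notes. The annotation and the strandedness of counting were not given in the sources used here. Files deposited by the authors hold raw counts for each gene symbol, unscaled, so depth limits Pou3f4 most. Counter lines that name no gene made up 34.7% to 45.8% of counted reads and stayed out of depth and tests. The series-wide table of scaled values was not used here.

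Tests used edgeR 4.0.16 in R 4.3.3: filterByExpr (13583 of 24421 genes kept), TMM factors, a robust glmQLFit and glmQLFTest, with p-values adjusted by Benjamini-Hochberg across every tested gene and called at 0.05. These steps were tested on simulated data. Exact permutation tests of 6 against 6 libraries ran over all 924 splits (smallest p 0.00216), on log2(CPM + 0.5) for levels and on log2 reads with 0.5 added for ratios. Intervals are at 95%. Positions, exon lengths and overlaps are from GENCODE vM21 on GRCm38 (mm10), and promoters from RefSeq, with entries for 4 of the 6 members. Within a genotype, no pair of libraries agreed within sampling noise (lowest chi-square 5.08 for each degree of freedom), and each was counted as 1 sample. That check can find a repeat of 1 library but cannot show whether samples share an animal.

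The members, the gene lists and the motifs were chosen with earlier results of these data known. Named genes are the members, Gcg, Il22ra1, up to 4 genes with the smallest p in each list of alpha-cell genes and partners, up to 2 in each list of other cell types, and the 10 genes most like the members' mean profile. Ins1, Ins2, Pou3f1, the untested paralogs and the hepatocyte genes other than Fga and Tat were named after their values were seen. A few genes that this rule names are not reported here. Alternatives were other scalings (RLE, upper quartile, TMM with acinar genes left out), other count filters, DESeq2 1.42.0, limma-voom 3.58.1, no robust shrinkage, a replicate block, acinar and endothelial scores, 1 surrogate variable (sva 3.50.0), other denominators and each library left out.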

Additional observations from a re-analysis of the deposited data

Results flagged for a closer look

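Of 28 groups of 6 libraries examined, in which chance flags about 1 in 20, 1 held a library far from the others. Cre-3 had 0.853 Irx1 reads per 1000 Gcg reads, while the other 5 Cre libraries lay between 1.05 and 1.13, and its gap to the nearest of them was 0.713 of the range.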

How the results depend on the processing

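Leaving out 1 library at a time gave 0 to 135 genes higher in BKO and 0 to 127 lower, the highest counts without BKO-4. Without Cre-5 the counts were 105 and 5. Members called numbered 0 to 3. The log2 fold changes then ran from 0.3026 to 0.4806 for Irx1, from 0.4072 to 0.6246 for Irx2, from -0.164 to 0.4257 for Pou3f4, from 0.4777 to 0.7007 for Ttr, from 0.3061 to 0.483 for Gc and from -0.1004 to 0.09297 for Slc38a5. The log2 ratios to Gcg ran from -0.2427 to -0.1027 for Irx1, from -0.05437 to 0.02143 for Irx2, from -0.6931 to -0.1912 for Pou3f4, from -0.007069 to 0.06108 for Ttr, from -0.2843 to -0.1412 for Gc and from -0.6465 to -0.45 for Slc38a5. DESeq2 called 151 genes higher and 50 lower, with 1 member, Irx2, at 0.5392, and gave Slc38a5 -0.0006666. Slc38a5 was at -0.001365 with no count filter, and Pou3f4 at -0.03181 with limma-voom and at -0.1311 with 1 surrogate variable, while with the acinar score Pou3f4 was at 0.7887 and Slc38a5 at 0.1615. With the summed insulin reads as denominator the log2 ratios were 0.5102 (Irx1), 0.6547 (Irx2), 0.192 (Pou3f4), 0.6887 (Ttr), 0.4684 (Gc) and 0.1314 (Slc38a5). With Sst they were 0.06063 (Irx1), 0.2051 (Irx2), -0.2575 (Pou3f4), 0.2392 (Ttr), 0.01886 (Gc) and -0.3181 (Slc38a5). Correlations with Gcg that crossed the threshold or zero were 0.7432 (Irx1 within BKO), 0.853 (Gc within BKO), -0.1149 (Gc within Cre), 0.3356 (Pou3f4 within Cre), 0.4911 (Pou3f4 without BKO-1 and BKO-6) and 0.8816 (Slc38a5 within Cre). The cause of these shifts was not tested. Pou3f4 is limited by depth.

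The labels do not say that replicate numbers pair the samples. Same-numbered libraries correlated from -0.0849 to 0.312, under 0 for 2 of the 6 numbers, and 4 of 6 BKO libraries correlated best with their own number, a hint of pairing from the data and not from the design. With the replicate block 292 genes were higher and 72 lower, with 2 members, Irx2 at 0.5415 (edgeR adjusted p = 0.0157) and Ttr at 0.5732 (edgeR adjusted p = 0.00568). The paired Slc38a5 ratio was -0.5374 (exact permutation of the signs of paired differences, p = 0.0625).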
